A study of Mus musculus with 4 samples.

Results

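Endocycle cyclins, their inhibitors and the atypical E2F factors were followed in outgrowths of Tip110-/- and wild-type mouse blastocysts. The list held 10 genes: the D-type cyclins Ccnd1, Ccnd2 and Ccnd3, the E-type cyclins Ccne1 and Ccne2, the inhibitor Cdkn1c, the licensing inhibitor Gmnn, the ubiquitin ligase activator Fzr1, and E2f7 and E2f8. A gene was taken where a row of the array table carried its symbol and no other. That gave 9 of the 10 genes, out of 30142 genes in all. The single row of Ccnd1 also carries the symbol Mir3962, so no value of Ccnd1 is given.

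Each genotype had 2 arrays. For Tip110-/- as for wild-type, RNA of 3 outgrowths was pooled for replicate 1, and replicate 2 came from a single outgrowth. The blastocysts were flushed, after natural matings and superovulations, at 3.5 days post coitum from crosses between Tip110+/- mice, so both genotypes came from heterozygous parents. Each was then cultured on its own for 4 to 6 days, untreated, in a stem cell medium (KOSR-ESCM) based on serum replacement. The parental strain, the deleted part of Tip110 and the number of litters are unknown here, and an outgrowth is a culture of several cell types in place of an embryo. Tip110 is the gene Sart3, a factor of U4/U6 snRNP recycling. Its row was at 4.28 and 4.54 in the Tip110-/- arrays, against 4.94 and 5.98 in the wild-type arrays, lower in both Tip110-/- arrays, although whether its probes lie in the deleted part is not known.

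In an endocycle a cell copies its DNA again without dividing. Trophoblast giant cells, which spread at the rim of a blastocyst outgrowth and later line the implantation site, become polyploid in this way. D-type cyclins with CDK4 and CDK6 and E-type cyclins with CDK2 inactivate the RB proteins and start S phase. CDKN1C, also called p57, blocks the kinase activity needed for mitosis in differentiating mouse trophoblast cells. Geminin, the product of Gmnn, holds the licensing factor CDT1 until mitosis, and FZR1, also called CDH1, directs the anaphase-promoting complex to destroy geminin and mitotic cyclins in G1. E2F7 and E2F8 lack a transactivation domain and repress E2F target genes. Mouse knockouts of both E-type cyclins, or of both atypical E2Fs, have giant cells with less DNA.

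E2F factors bind near the starts of many genes of this list, so the bases before the annotated starts of both atypical E2Fs and of Ccne1 are shown. The windows come from RefSeq (GRCm38.p6), read 5′ to 3′ on the strand of the gene, and end at the last base before the start. They lie at chr10:110745189-110745438 (+ strand) for E2f7, chr7:48881597-48881846 (- strand) for E2f8 and chr7:38107491-38107740 (- strand) for Ccne1. Capitals mark matches to TTTNNCGC on either strand, an E2F consensus in which N is any base.
E2f7: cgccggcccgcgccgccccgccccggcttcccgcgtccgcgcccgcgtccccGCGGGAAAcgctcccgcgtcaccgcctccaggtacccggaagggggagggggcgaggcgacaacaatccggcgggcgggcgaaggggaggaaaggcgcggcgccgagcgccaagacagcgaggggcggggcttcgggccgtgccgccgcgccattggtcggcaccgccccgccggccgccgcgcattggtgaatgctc
E2f8: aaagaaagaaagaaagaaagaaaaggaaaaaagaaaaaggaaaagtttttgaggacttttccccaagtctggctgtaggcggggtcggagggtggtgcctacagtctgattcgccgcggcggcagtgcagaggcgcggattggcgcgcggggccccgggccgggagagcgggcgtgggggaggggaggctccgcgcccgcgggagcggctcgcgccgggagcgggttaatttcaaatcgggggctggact
Ccne1: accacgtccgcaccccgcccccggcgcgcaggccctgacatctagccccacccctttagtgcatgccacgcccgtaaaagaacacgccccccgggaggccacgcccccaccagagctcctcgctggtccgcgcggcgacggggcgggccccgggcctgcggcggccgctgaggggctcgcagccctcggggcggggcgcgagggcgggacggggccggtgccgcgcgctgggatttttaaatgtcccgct
In E2f7 the match began 198 bases before the start, and the windows of E2f8 and Ccne1 held none. Windows were at hand for 5 of the 10 genes, with 2 for Ccnd3, and 1 of these 6 windows held a match. Over all 32851 windows of 250 bases the share was 4.28%. These letters describe the sequence, and binding was not measured in this series.

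Values below are the deposited log2 signals, so that 1 unit is a 2-fold difference. The median of the antigenomic background rows, which match no mouse sequence, was 3.05 and 2.94 in the Tip110-/- arrays and 2.83 and 2.82 in the wild-type arrays. Genes had medians of 4.45 and 4.32 in the Tip110-/- arrays and of 4.21 and 4.22 in the wild-type arrays. The positive control rows had medians of 8.69 and 9.51 in the Tip110-/- arrays and 9.80 and 9.66 in the wild-type arrays, the pooled Tip110-/- array being lowest. Each outgrowth gave 55 and 144 pg of RNA for Tip110-/- and 249 and 178 pg for wild-type, so RNA amount and genotype cannot be told apart. As these are bulk samples, fewer cells of a type and less RNA per cell cannot be told apart either.

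None of the 9 measured endocycle genes differed between the genotypes past the threshold. By limma 0 of 9 had an adjusted p under 0.05, with a smallest adjusted p of 0.428, where the share over all genes was 0% (0 of 30142, smallest adjusted p 0.154). At an unadjusted p under 0.05 the count was also 0 of 9, where 12.7% of all genes lay under that mark, 8.99% higher and 3.67% lower in Tip110-/-. Differences ran from -0.66 for Ccnd3 to 0.68 for Cdkn1c, 4 genes higher and 5 lower. Their median was -0.03, against 0.15 over all genes, or -0.18 relative to all genes. Over genes above the median row of the table (4.05), where all 9 lie, the median was 0.07. No member differed by 1 log2 unit, as 10.1% of all genes did. All 9 intervals of 95% held 0, and all 9 also reached past a difference of 1 in at least 1 direction.

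The groups did not overlap for 3 of the 9 genes, 1 with both Tip110-/- arrays above and 2 with both below. Over all genes this share was 52.9%, made up of 39.9% above and 12.9% below, so the count is no result about the list.

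**Figure D1:**
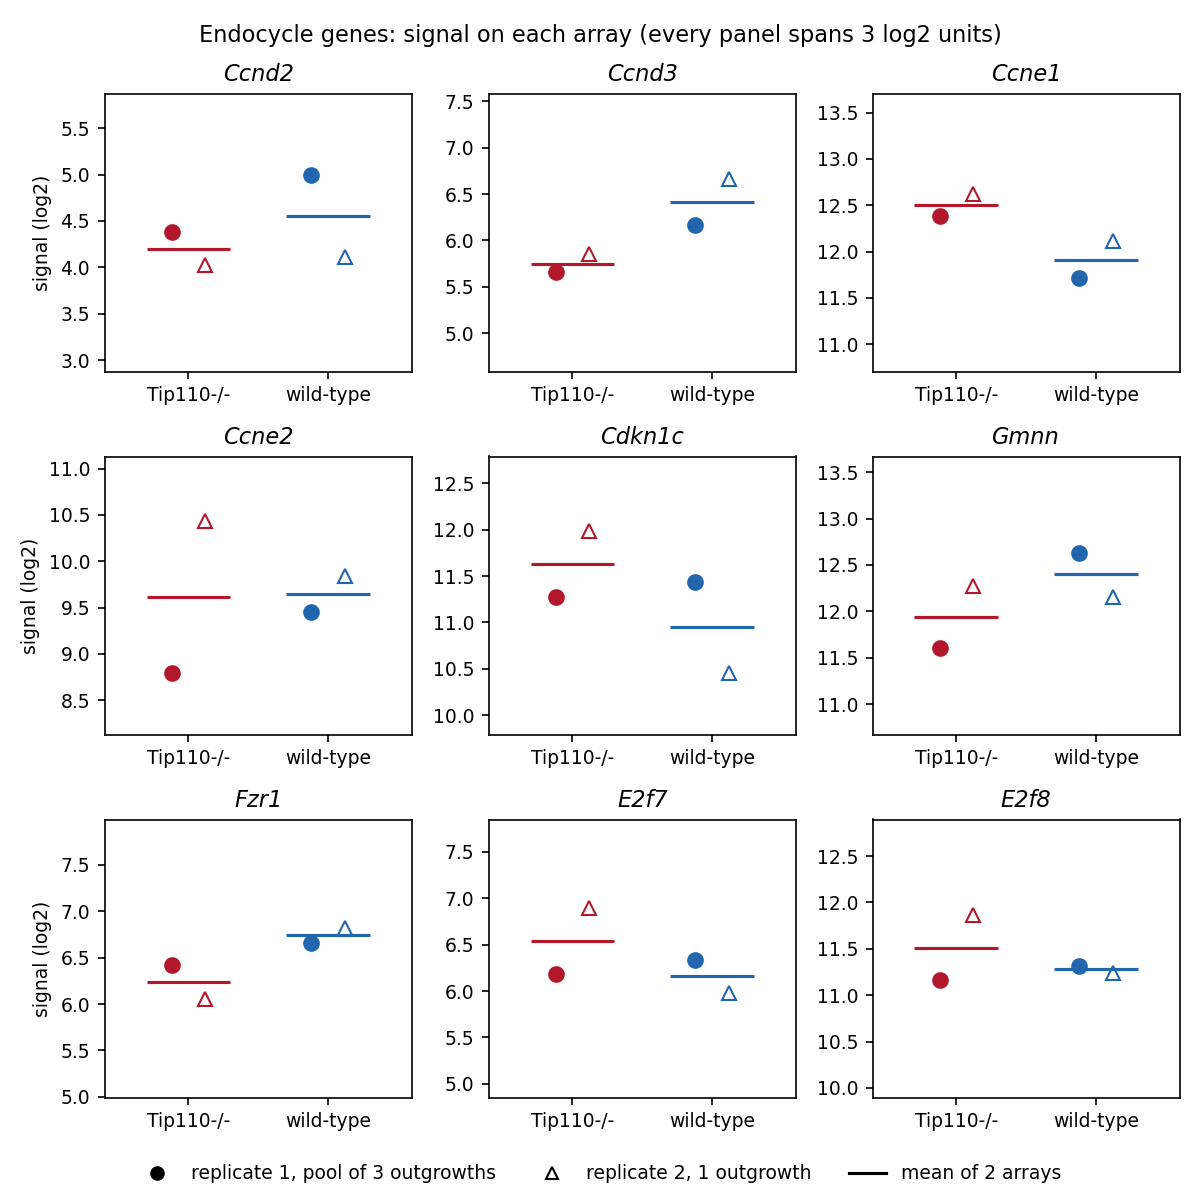
Signal (log2, y axis) of the 9 endocycle genes on each array, with Tip110-/- left of wild-type in every panel; filled circles are pools of 3 outgrowths, open triangles single outgrowths and lines the means of 2 arrays. Both Tip110-/- arrays lie above both wild-type arrays for Ccne1 and below them for Ccnd3 and Fzr1, and the groups overlap for the other 6 genes.

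Among the D-type cyclins, which couple growth factor signals to G1, Ccnd3 had the largest negative difference of the list. Ccnd3 was at 5.66 and 5.85 in the Tip110-/- arrays, against 6.17 and 6.66 in the wild-type arrays. Both Tip110-/- arrays were lower. The means were 5.75 ± 0.13 in Tip110-/- and 6.42 ± 0.34 in wild-type (SD, n = 2 each), a difference of -0.66 ± 0.34 (SE) with a 95% interval of -1.54 to 0.21 (limma adjusted p = 0.428). Ccnd2 was at 4.38 and 4.02 in the Tip110-/- arrays, against 5.00 and 4.11 in the wild-type arrays. The groups overlapped at a level near the median over genes, with the pooled wild-type array highest, and the difference was -0.35 ± 0.34 (interval -1.23 to 0.52, adjusted p = 0.598). It was 0.09 without wild-type replicate 1 and -0.80 without wild-type replicate 2.

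The E-type cyclins, the CDK2 partners that fire S phase in both mitotic and endocycling cells, had unlike orders of the 4 arrays. Ccne1 was at 12.38 and 12.62 in the Tip110-/- arrays, against 11.71 and 12.11 in the wild-type arrays. It was the only member with both Tip110-/- arrays above both wild-type arrays. The means were 12.50 ± 0.17 in Tip110-/- and 11.91 ± 0.28 in wild-type, a difference of 0.60 ± 0.46 (interval -0.57 to 1.76, adjusted p = 0.522). Ccne2 was at 8.80 and 10.43 in the Tip110-/- arrays, against 9.45 and 9.84 in the wild-type arrays. Both wild-type arrays lay between the pooled and the single Tip110-/- array, which were 1.63 apart. The difference of the Ccne2 means was -0.03 ± 0.73 (interval -1.90 to 1.83, adjusted p = 0.983). Its sign turned with cyclic loess, at 0.03, without Tip110-/- replicate 1, at 0.78, and without wild-type replicate 2, at 0.16.

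Of the inhibitors, Cdkn1c had the largest positive difference of the list. It was at 11.27 and 11.99 in the Tip110-/- arrays, against 11.44 and 10.46 in the wild-type arrays. The pooled arrays of both genotypes were close together, and the single outgrowths lay at the top (Tip110-/-) and the bottom (wild-type) of the range. The means were 11.63 ± 0.51 in Tip110-/- and 10.95 ± 0.69 in wild-type, a difference of 0.68 ± 0.61 (interval -0.88 to 2.25, adjusted p = 0.573). Gmnn, whose loss in mouse embryos leads cells to re-replicate their DNA, was at 11.61 and 12.27 in the Tip110-/- arrays, against 12.63 and 12.16 in the wild-type arrays. The groups overlapped, with the pooled Tip110-/- array lowest, and the difference was -0.46 ± 0.50 (interval -1.75 to 0.83, adjusted p = 0.642). Fzr1 was at 6.42 and 6.05 in the Tip110-/- arrays, against 6.66 and 6.82 in the wild-type arrays. Both Tip110-/- arrays were lower, by -0.51 ± 0.36 between the means (interval -1.42 to 0.41, adjusted p = 0.496).

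The atypical E2Fs, repressors of genes that the activating E2Fs switch on, differed less between the genotypes than between the Tip110-/- arrays. E2f7 was at 6.18 and 6.90 in the Tip110-/- arrays, against 6.34 and 5.98 in the wild-type arrays. E2f8 was at 11.16 and 11.86 in the Tip110-/- arrays, against 11.32 and 11.24 in the wild-type arrays. For both genes the single Tip110-/- outgrowth was highest and the pooled Tip110-/- array lay below the pooled wild-type array. The differences were 0.38 ± 0.41 for E2f7 (interval -0.67 to 1.42, adjusted p = 0.639) and 0.23 ± 0.52 for E2f8 (interval -1.11 to 1.56, adjusted p = 0.828). E2f8 was at -0.12 without Tip110-/- replicate 2, and E2f7 at 0.02. With 4 arrays no correlation between the genes is given.

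Set side by side by format, pools against pools and single outgrowths against single outgrowths, the 2 comparisons of the genotypes did not run the same way. In the pools 8 of 9 genes were lower in Tip110-/-, all but Ccne1, where 35.0% of all genes were lower. In the single outgrowths 6 of 9 were higher in Tip110-/-, where 65.6% of all genes were higher. The median difference of the 9 was -0.24 in the pools and 0.52 in the single outgrowths, against 0.16 and 0.11 over all genes. Ccne2, Cdkn1c, Gmnn, E2f7 and E2f8 were lower in the Tip110-/- pool and higher in the single Tip110-/- outgrowth than in their wild-type counterparts. That is 5 of 9 genes, where 17.8% of all genes and 23.8% of the 17491 genes above the median row of the table (4.05) had this combination. The gap between the 2 formats was largest for Cdkn1c, at -0.17 in the pools and 1.53 in the single outgrowths, and Ccne2 followed at -0.65 and 0.58. Of the 9 genes, 7 were higher in the single than in the pooled Tip110-/- array, as were 41.5% of all genes and 49.4% of those above the median row, where all 9 lie. The gap between the Tip110-/- arrays exceeded that between the genotypes for 6 of the 9, against 48.5% of all genes and 50.8% above the median row. The gap between the wild-type arrays did so for 4 of the 9, against 41.8% of all genes and 47.8% above the median row. With 1 array in each cell of this layout the contrast has no test, and the split was noticed after the values were seen. The positive control rows and RNA per outgrowth, given above, were also lower in the pooled than in the single Tip110-/- array, and their part in it was not tested.

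**Figure D2:**
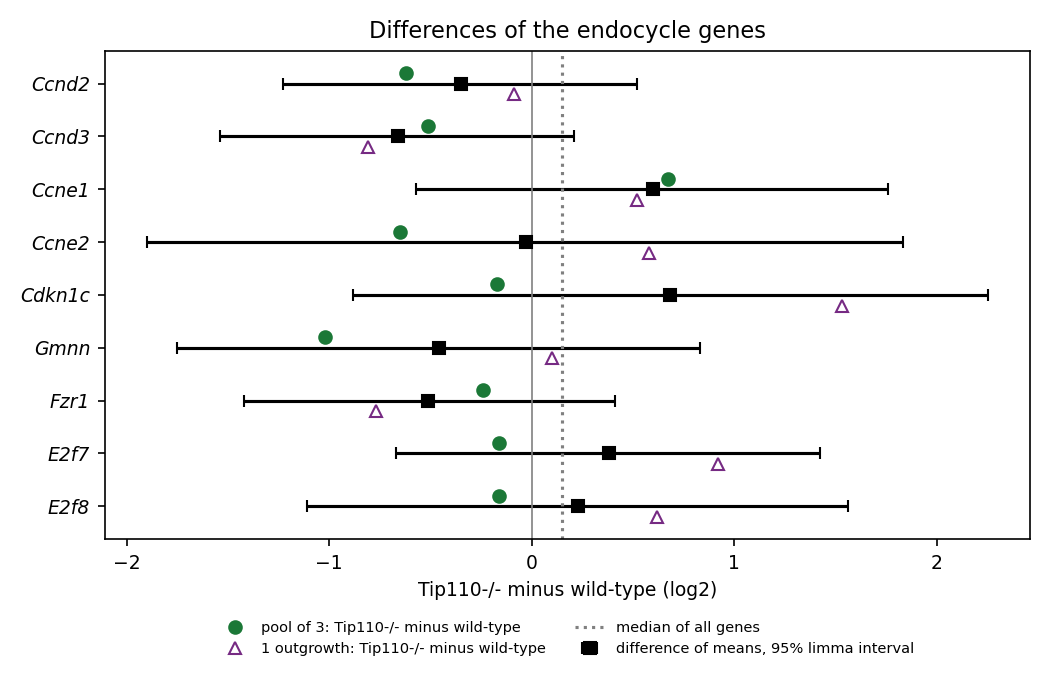
Tip110-/- minus wild-type (log2, x axis) for the 9 endocycle genes: squares are differences of means with 95% limma intervals (n = 2 arrays per genotype), circles the pools of 3, open triangles the single outgrowths, and the dotted line the median of all genes at 0.15. Every interval holds 0, and for Ccne2, Cdkn1c, Gmnn, E2f7 and E2f8 circle and triangle lie on opposite sides of 0.

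Genes that act with the members were read as 5 lists of 69 genes, of which 65 had a row. At an unadjusted p under 0.05 there were 9 of these 65, a share of 13.8% beside 12.7% over all genes. Of the 9, 8 were lower and 1 higher in Tip110-/-, where 3.67% of all genes were lower and 8.99% higher. In a fit of only the 17491 genes above the median row of the table, 1037 were lower and 957 higher. None of the 65 passed over all genes (smallest limma adjusted p 0.315). The lists were chosen with earlier results of these arrays known, and are described by counts without a test of the list.

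Kinases and inhibitors of G1 and S phase had 1 of 12 members higher and 1 lower, with a median difference of -0.01. Cdkn1a, the p21 inhibitor that p53 induces, was at 14.79 and 16.83 in the Tip110-/- arrays, against 14.04 and 13.66 in the wild-type arrays. Both Tip110-/- arrays were higher, the single outgrowth most (difference 1.96 ± 0.71, limma unadjusted p = 0.039, adjusted p = 0.384). Cdk4, the kinase partner of the D-type cyclins, was at 12.20 and 10.18 in the Tip110-/- arrays, against 13.65 and 13.82 in the wild-type arrays. Both Tip110-/- arrays were lower, the single outgrowth most (difference -2.55 ± 0.76, unadjusted p = 0.0206, adjusted p = 0.348). Its relative Cdk6 was lower in both Tip110-/- arrays too, at 5.45 and 4.36 against 6.01 and 8.69, with a difference of -2.44 ± 0.96 (unadjusted p = 0.051, adjusted p = 0.395). Cdk2, the kinase partner of the E-type cyclins, differed by -0.05 ± 0.52 (adjusted p = 0.965). Ccna2, the cyclin of S phase and mitotic entry, was at 10.66 and 9.53 in the Tip110-/- arrays, against 11.80 and 11.29 in the wild-type arrays (difference -1.45 ± 0.63, adjusted p = 0.400). Cdkn1b, the p27 inhibitor, lay under the median over genes on every array, at 3.66 and 3.75 against 3.85 and 3.86. Cdkn1a left the unadjusted mark without Tip110-/- replicate 2, at 0.94, and without either wild-type array, at 2.15 and 1.77. Cdk4 left it without either wild-type array, at -2.63 and -2.46, and was at -1.53 without Tip110-/- replicate 2.

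In the list of the RB family, other E2Fs and their partners 1 of 14 was lower and 0 higher, with a median of -0.12. The 1 was Rbl1, the p107 pocket protein, at 4.54 and 4.57 in the Tip110-/- arrays against 4.97 and 5.21 in the wild-type arrays (difference -0.54 ± 0.21, limma unadjusted p = 0.048, adjusted p = 0.392). Rb1 was at 3.70 and 4.10 against 3.96 and 6.95, where only the single wild-type outgrowth stood out. The activators E2f1 and E2f3 differed by -0.77 ± 0.39 and 0.27 ± 0.55 (adjusted p = 0.425 and 0.808). E2f3 was at 4.82 and 6.38 in the Tip110-/- arrays, against 5.34 and 5.34 in the wild-type arrays, with the single Tip110-/- outgrowth highest. Rbl1 left the unadjusted mark when any 1 of the 4 arrays was omitted, at -0.66 to -0.41.

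Origin licensing, the step that geminin blocks, had a median of -0.33, and 0 of 12 genes were under an unadjusted p of 0.05. The geminin target Cdt1 was at 7.04 and 7.60 in the Tip110-/- arrays, against 7.17 and 7.70 in the wild-type arrays, a difference of -0.11 ± 0.47 (limma adjusted p = 0.911). The loading factor Cdc6 differed by -0.02 ± 0.57 (adjusted p = 0.986), its wild-type arrays lying between the Tip110-/- arrays.

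Among 18 genes of the ubiquitin ligases that act on cyclins, geminin and CDT1, 2 were lower and 0 higher, with a median of -0.08. Both regulate the anaphase-promoting complex, as Fzr1 does. Cdc20, its activator in mitosis where FZR1 acts in G1, was at 7.70 and 5.74 in the Tip110-/- arrays, against 11.19 and 11.06 in the wild-type arrays (difference -4.41 ± 0.79, limma unadjusted p = 0.00247, adjusted p = 0.315). Fbxo5, also called EMI1, which inhibits the complex in S and G2 phase, was at 6.05 and 4.91 against 6.89 and 8.06 (difference -2.00 ± 0.61, unadjusted p = 0.0222, adjusted p = 0.353). For both genes the single Tip110-/- outgrowth was lowest. Skp2, which targets p27 and p57, and Fbxw7, which targets cyclin E, differed by -0.04 ± 1.03 and 0.01 ± 0.29 (adjusted p = 0.987 and 0.988). Cdc20 kept the unadjusted mark without any 1 array, at -5.39 to -3.42. Fbxo5 left it without wild-type replicate 2, at -1.41, and without Tip110-/- replicate 2, at -1.42.

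Genes of mitotic entry, which an endocycle omits, had 4 of 9 measured members lower and 0 higher, with a median of -1.38. The share of all genes lower at that mark was 3.67%, and no member of the endocycle list was among them. In the fit of only the genes above the median row, 1037 of 17491 were lower. Ccnb1, Ccnf and Foxm1 had no row of their own. Cdk1, the mitotic kinase, was at 8.47 and 8.58 in the Tip110-/- arrays, against 10.08 and 9.76 in the wild-type arrays (difference -1.40 ± 0.51, limma unadjusted p = 0.0398, adjusted p = 0.385). Its cyclin Ccnb2 was at 7.33 and 5.63 against 9.60 and 8.32 (difference -2.48 ± 0.80, unadjusted p = 0.0261, adjusted p = 0.362). Both Tip110-/- arrays were lower for each. Plk1, the polo kinase, was at 9.34 and 6.85 in the Tip110-/- arrays, against 11.81 and 12.50 in the wild-type arrays (difference -4.06 ± 0.96, unadjusted p = 0.00801, adjusted p = 0.334). Mybl2, the B-MYB activator of mitotic genes, was at 9.56 and 6.64 against 11.66 and 12.65 (difference -4.06 ± 1.09, unadjusted p = 0.0137, adjusted p = 0.341). Again the single Tip110-/- outgrowth was lowest for both. Chek1, a checkpoint kinase, was at 5.75 and 7.83 in the Tip110-/- arrays, against 9.07 and 7.27 in the wild-type arrays, so the groups overlapped (difference -1.38 ± 0.96, adjusted p = 0.493). Omission of 1 array left Plk1 under the unadjusted mark, at -5.31 to -2.82, in every case. Mybl2 left it without wild-type replicate 2, at -3.56, and was at -2.60 without Tip110-/- replicate 2. Ccnb2 left it without wild-type replicate 1, at -1.84, and without Tip110-/- replicate 2, at -1.63. For Cdk1 any 1 array did so, at -1.55 to -1.24.

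**Figure D3:**
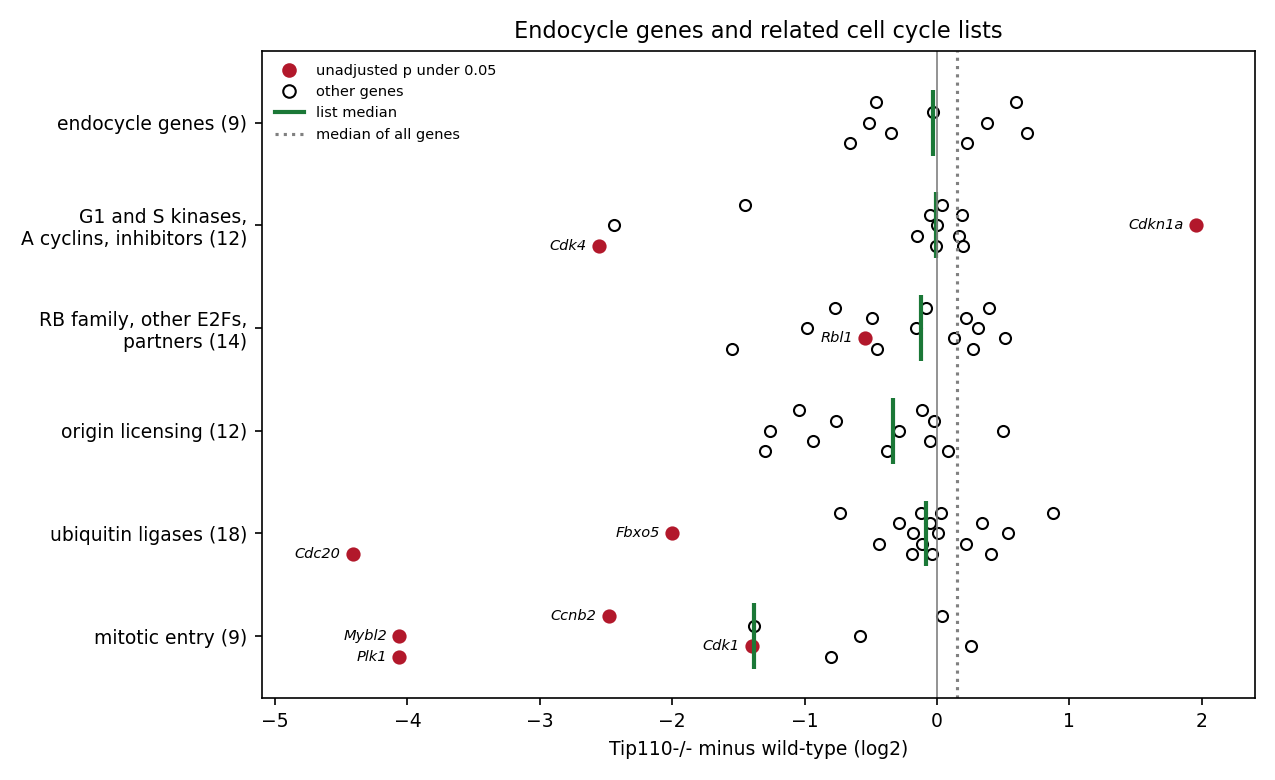
Tip110-/- minus wild-type (log2, x axis) for each gene of the endocycle list and of 5 related lists, with the number of measured genes in brackets; filled points had an unadjusted limma p under 0.05, green bars are list medians and the dotted line the median of all genes. The endocycle genes span -0.66 to 0.68 with none filled, while 4 of 9 mitotic entry genes are filled at -1.40 to -4.06.

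Markers of the cell types in an outgrowth also differed between the genotypes, at unadjusted p-values only. Over all genes 3.67% were lower and 8.99% higher in Tip110-/- at an unadjusted limma p under 0.05. In the fit of only the 17491 genes above the median row, 1037 were lower and 957 higher. Of 10 epiblast markers 7 were lower and 0 higher at an unadjusted p under 0.05. Their summed linear signal was 2691 and 1377 in the Tip110-/- arrays against 23234 and 53054 in the wild-type arrays. Nanog made up 1.29% to 70.4% of these sums, which without it were 1592 and 1360 against 11178 and 15678. The list of trophoblast giant cell markers had 8 measured genes, 5 of them higher and 0 lower: Plet1, Prl5a1, Prl8a9, Psg17 and Mmp9. These are trophoblast genes but not restricted to giant cells, and Prl5a1 and Prl8a9 are genes of the spongiotrophoblast. The defining giant cell genes Hand1 and Prl2c2 did not pass and their groups overlapped. Hand1 was at 9.07 and 11.16 in the Tip110-/- arrays, against 9.75 and 9.97 in the wild-type arrays (difference 0.25, limma adjusted p = 0.887). It was lower in the Tip110-/- pool and higher in the single Tip110-/- outgrowth. So were Prl2c2 and the members Ccne2, Cdkn1c, Gmnn, E2f7 and E2f8. This combination was not particular to giant cell genes. The primitive endoderm markers Gata4, Gata6, Sox7, Lama1, Lamb1 and Dab2 had it too, while Sox17, Foxa2 and Sparc did not. Of all genes above the median row 23.8% had it. The proliferin gene Prl2c2 was at 17.17 and 18.33 against 17.44 and 16.68 (difference 0.69, adjusted p = 0.48), and Prl3d1 had no row of its own. The summed signal of the list was 270292 and 630583 in the Tip110-/- arrays and 231897 and 145740 in the wild-type arrays, of which Prl2c2 made up 52.1% to 76.4%. Of 9 measured trophoblast progenitor markers 2 were higher and 0 lower, Gata2 and Ets2, and the defining markers Cdx2, Eomes and Elf5 did not pass. The sums of that list, 133465 and 171920 against 125588 and 73594, describe mainly Krt8, a keratin of trophoblast in general, at 88.7% to 96.1% of each. Of 9 measured primitive endoderm markers 0 passed, and Sparc alone made up 83.2% to 95.9% of their sums of 2994 and 4987 against 9194 and 4657. None of 8 stromal markers passed, and their sums of 130 and 113 against 102 and 108 were near background, with Col1a1, Col1a2 and Dcn between 3.29 and 4.25 on every array. The part of the cell type makeup in the values of the endocycle genes and of the partner lists, mitotic entry included, was not tested.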

How the data were processed

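RNA of 2 Tip110-/- and 2 wild-type samples was hybridised to Affymetrix mouse whole-transcript arrays, with 144 pg labelled per array per the labels' protocols, although the series' design text gives another amount. The table deposited by the authors has 72688 rows of log2 values, the log base being inferred from their range. Affymetrix Expression Console and Transcriptome Analysis Console are named per the submitters' processing notes, and neither normalization nor genome build is stated there. Scanner files and detection calls were not used here.

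Rows were named by the platform annotation, 30604 with 1 symbol, 2146 with several and 33206 with none, beside 6732 controls. Symbols were updated by Entrez ID for 22818 rows (GRCm38.p6). For 355 genes with several rows the row with the highest mean was kept. limma 3.58.1 in R 4.3.3 (lmFit, eBayes with intensity trend, genotype as the only term) was fitted to all 30142 genes, two-sided, with Benjamini-Hochberg adjustment and a threshold of 0.05. Counts at an unadjusted p under 0.05 are descriptions. On simulated data of 30142 genes the fit called 0 of 50 genes changed by log2 1, 11 of 50 at 2, 31 of 50 at 4 and 43 of 50 at 8, with 3 of 29942 unchanged genes. At an unadjusted p under 0.05 these counts were 38, 45, 48 and 50 of 50, with 1469 unchanged genes. The changed genes were drawn at random from all 30142, with variances set by the intensity trend. All 9 members lie above the median row, with SEs of 0.34 to 0.73, so these counts give no detection rate for them. Named genes were the members, Sart3, 18 fixed partners (17 with a row, since Ccnb1 had none), and each listed partner at an unadjusted p under 0.05. The members and lists were chosen with earlier results of these data known. The labels call the samples biological replicates without naming animals or litters, so p-values measure only the spread between these samples, moderated over all genes. Within each genotype that spread includes the difference between a pool of 3 outgrowths and 1 outgrowth, treated as equal replicates. Having 2 arrays per group limits the precision. Alternatives were quantile, median and cyclic loess scaling, leaving out rows below the median row, other priors of the variance, a replicate block, the mean of a gene's rows, and each array left out. Python 3.11.15, pandas 2.3.3 and matplotlib 3.10.9 made tables and plots.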

Additional observations from a re-analysis of the deposited data

How the results depend on the processing

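Over the 12 alternatives no endocycle gene passed an adjusted p of 0.05 in limma (smallest 0.411), and 0 of 30142 genes did. Ccne2 turned to 0.03 with cyclic loess, the only sign change under another scaling. Leaving out each array in turn gave -0.80 to 0.09 for Ccnd2, -0.91 to -0.42 for Ccnd3, 0.40 to 0.79 for Ccne1, -0.85 to 0.78 for Ccne2, 0.19 to 1.17 for Cdkn1c, -0.79 to -0.13 for Gmnn, -0.69 to -0.32 for Fzr1, 0.02 to 0.74 for E2f7 and -0.12 to 0.58 for E2f8. Ccnd2 turned to 0.09 without wild-type replicate 1, Ccne2 to 0.78 without Tip110-/- replicate 1 and to 0.16 without wild-type replicate 2, and E2f8 to -0.12 without Tip110-/- replicate 2. The cause was not tested. The list median ran from -0.17 to 0.58 over these fits and was 0.58 without Tip110-/- replicate 1. The count of members at an unadjusted p under 0.05 ran from 0 to 1, the 1 being Ccnd2 without wild-type replicate 2 (-0.80, unadjusted p = 0.0438, limma adjusted p = 0.668). Over all genes that count was 3817, 1994 with only genes above the median row, which tests fewer genes, and 2240 to 5522 with an array left out. Its share of higher genes was 71.0%, and 46.4% with quantile normalization, 33.3% with centred columns and 43.2% with cyclic loess. Among the partner genes, Cdc20 and Plk1 kept an unadjusted p under 0.05 in all 12 alternatives. For the other 7 the arrays whose omission ended it are named beside their values. Cdkn1a also left it with centred columns (1.79) and with no intensity trend, Cdk4 with quantile normalization (-2.42), and Rbl1 with only genes above the median row and with the robust prior. A lone array left in a group is assumed to vary like the other group. Equal replicate numbers share only the format: over genes, replicate 1 minus replicate 2 correlated at -0.09 between the genotypes. With the replicate block in limma, 3336 genes had an unadjusted p under 0.05 and 0 members did. Among the partner genes Cdk1 and Rbl1 no longer did (limma adjusted p = 0.47 and 0.474).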
